A study of Macaca fascicularis with 20 samples.

Results

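The genes described here belong to the families that copy DNA and divide cells: MCM helicase and ORC origin proteins, CDC genes, A, B, D and E cyclins, cyclin-dependent kinases (CDKs) and their inhibitors, CENP centromere proteins, KIF kinesin motors, and the POLA, POLD and POLE polymerase subunits. They were taken by gene symbol, whatever their values. Of 166 genes with such symbols, 125 had a matched array probe, among 12530 genes in all. They were measured in sorted spleen cells of cynomolgus macaques (Macaca fascicularis) on 20 one-colour Agilent arrays. The natural killer (NK) cells were NKG2A+ CD8a+ live cells without lineage markers, and were sorted on CD27, a costimulatory receptor, and on CD11b, part of a leukocyte integrin. The groups were CD27+ CD11b+ cells (double positives, 5 arrays), CD27lo CD11b+ cells (CD11b single positives, 5 arrays), CD27+ CD11blo cells (CD27 single positives, 4 arrays), CD27lo CD11blo cells (double-low cells, 4 arrays) and HLADR+ CD20+ NKG2A- CD8a- B cells (2 arrays).

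No animal was treated, all cells had been frozen, thawed and sorted, and none was stimulated. The NK arrays came from males and females labelled as 4, 5, 9, 10, 11, 12 or 18 years old, or of unknown age. NK replicates 1, 2 and 3 were all labelled male, replicate 1 of 4 years and replicate 2 of unknown age. Replicate 3 was labelled 9 years in double-low cells, 10 in CD27 single positives, 11 in CD11b single positives and 12 in double positives. Within replicate 3, labelled age and subset cannot be told apart. By labelled origin, NK replicate 1 came from Cambodia, NK replicates 2 and 3 from Vietnam, and NK replicates 4 and 5 and both B cell arrays from Singapore. Replicate 4 of double positives and of CD11b single positives was labelled a male of 5 years, and no CD11blo array had that label. The other NK arrays from Singapore were labelled a female of 18 years. B cell replicate 1 was labelled a female of 5 years and B cell replicate 2 a female of 18 years. The labels do not say which arrays share an animal, and they call the NK arrays of a subset biological replicates. A bulk array cannot tell more dividing cells from more RNA of these genes per cell.

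A cell that enters the cycle first raises D cyclins, which bind CDK4 and CDK6 and are held back by CDK inhibitors. ORC, CDC6 and the MCM helicase then license replication origins, CDC7 and CDK2 fire them, and the polymerases copy the DNA. CDK1 with A and B cyclins drives mitosis, in which CENP proteins build the kinetochore, mitotic kinesins move chromosomes and spindle poles, and the anaphase-promoting complex ends the phase. Resting lymphocytes in blood and spleen mostly sit outside the cycle, while B cells of germinal centres are among the fastest dividing cells of the body. Many genes of these families have other work: most kinesins carry cargo along microtubules, and CDK7, CDK8 and CDK9 act on RNA polymerase.

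A level is given as log2 of the processed signal minus the 75th percentile of that array, so that 0 is a bright probe of the array and each unit is a doubling. Levels of different genes are read by different probes and are not compared with each other. The 75th percentile lay between 180 and 1897 units of intensity, and Feature Extraction marked 67.9% to 96.0% of probes on an array as well above background. The dimmest arrays, replicate 4 of double positives and replicate 4 of double-low cells, had 84 and 99 of 124 tested members above it, against 110 to 121 on the other 18. NK markers were higher in NK than in B cells, with 8 of 11 past the threshold, and B cell markers lower, with 8 of 11 past it. CD3 and other T cell genes were also present in the NK sorts (5 of 5 higher than in B cells by value, 1 past the threshold), and their part in the results was not tested. Of the genes the sort used between subsets, only CD27 had a matched probe.

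Transcripts of the division machinery were measurable in splenic NK cells. Of the 125 members, 77 were well above background on all 18 NK arrays, 111 on both B cell arrays, and 7 on neither B cell array. The same counts were not made over all genes, so no count in this paragraph is read as particular to the members. A narrower set of 37 members whose RNA is tied to dividing cells (MCM and ORC genes, CDC6, CDC7, CDC25C, CDC45, POLA1, CDKN3, cyclins A2 and E2, CDK1, CENP proteins and mitotic kinesins) was called the core proliferation members. Of these, 19 were well above background on all 18 NK arrays. KIF14, a kinesin of the last step of cell division, reached that level on 2 NK arrays and KIF18A, which damps chromosome movement, on 3, and neither did so on a B cell array.

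Among the D cyclins, CCND2 had NK levels from 2.05 to 5.56, with a median of 4.48, against 2.22 on B cell replicate 1 and 2.59 on B cell replicate 2. It lay above both B cell arrays on 16 of 18 NK arrays. CCND2 binds CDK4 and CDK6 and is induced in lymphocytes by antigen and cytokine receptors. The difference was 1.91 ± 0.63 (limma standard error), with an adjusted p of 0.0966, above the threshold of 0.05. CCND3, the D cyclin of many resting lymphocytes, ran from -1.24 to 1.18 over the NK arrays with a median of -0.11, against 0.54 and -0.08 on the B cell arrays. CCND1 ran from -4.60 to 1.65, a span that enclosed both B cell arrays, at -1.71 and -1.51.

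The CDK inhibitors had no called difference. CDKN1B (p27), which keeps resting lymphocytes out of the cycle, had NK levels from -3.12 to 1.40 with a median of -0.08, against 0.68 and 0.92 on the B cell arrays. On 14 of 18 NK arrays it lay below both. CDKN2D (p19) had NK levels from -4.18 to 1.90 and B cell levels of -0.05 and 0.12, and the groups overlapped. CDKN3, a phosphatase of CDKs that is counted among the core members, was well above background on 1 NK array and 1 B cell array.

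Between NK and B cells, 362 of 12383 genes passed an adjusted p of 0.05 by limma with Benjamini-Hochberg adjustment (2.92%), 213 higher in NK cells (1.72%) and 149 lower (1.2%). Of the 124 members tested, 4 passed, 2 higher and 2 lower, a share near that of all genes. The members had a median difference of -0.08, against 0.36 for all genes tested, and 58 of 124 were higher in NK cells by value, against 59.1% of all genes. At an unadjusted p under 0.05, there were 24 members, 17 higher and 7 lower, against 22.7% of all genes, 17.5% higher and 5.2% lower. For 6 members the lowest NK array exceeded both B cell arrays (7.42% of all genes), and for 2 the highest NK array was below both (3.19%).

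**Figure D1:**
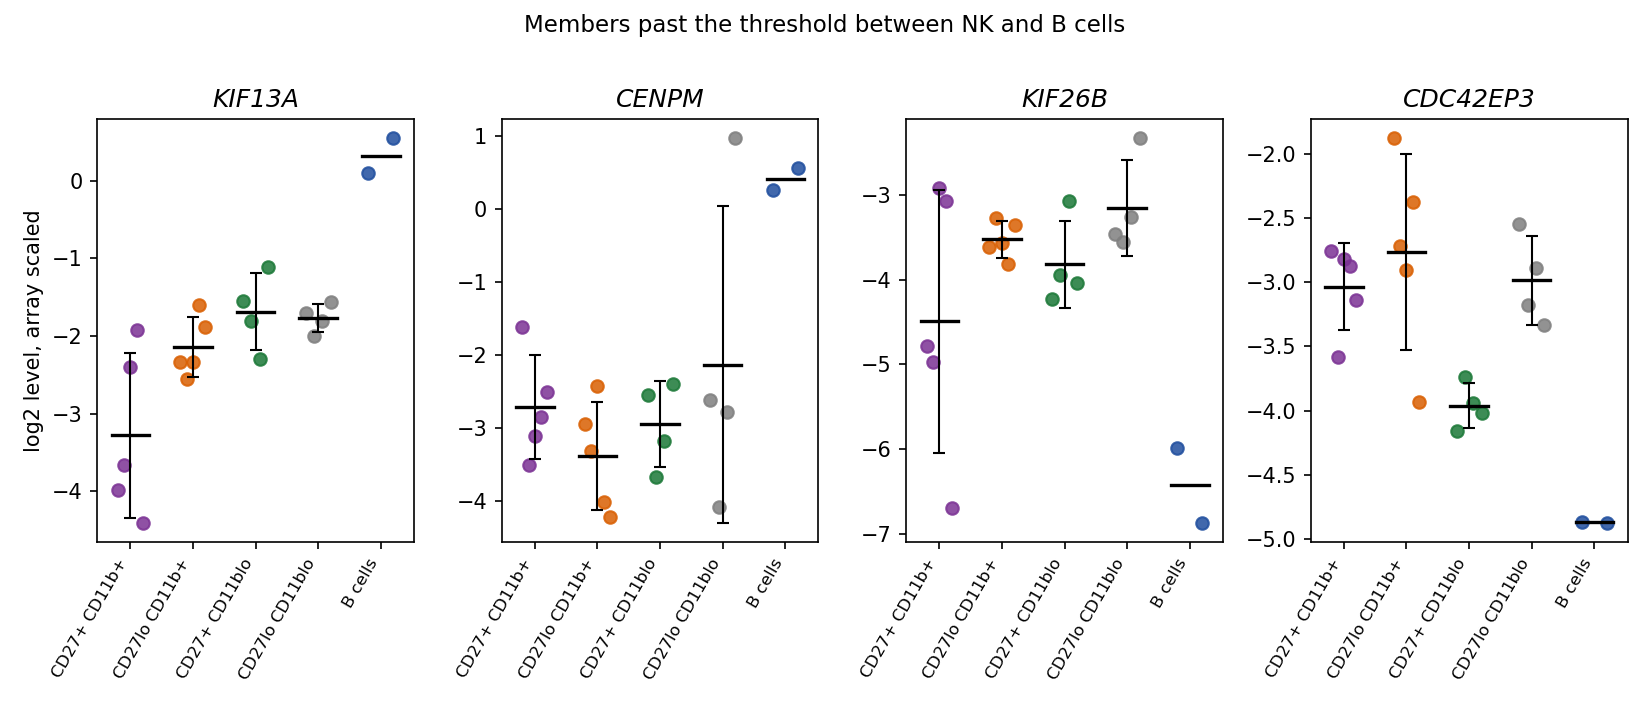
Log2 level (array scaled, vertical axis) of the 4 members past the threshold between NK and B cells, by group. Each point is an array, bars are group means, and error bars are SD for the NK subsets. KIF13A lay at 0.10 and 0.55 in B cells, above all 18 NK arrays, and CDC42EP3 at -4.87 on both B cell arrays, below all of them.

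KIF13A is a cargo kinesin of the kinesin-3 family that carries recycling endosomes. Its NK levels ran from -4.41 to -1.11 with a median of -1.96, against 0.10 and 0.55 on the B cell arrays. No NK array reached a B cell array. KIF13A was lower in NK cells by a log2 of -2.54 ± 0.52 (18 NK and 2 B cell arrays, adjusted p = 0.00863). On the 1 slide that held both cell types the difference was -2.35, and the second probe of the gene gave -2.91. The donor label joined origin, sex and age, but the replicate 3 NK arrays, labelled 9, 10, 11 and 12 years, were given 1 label. With the donor label as a block KIF13A had a difference of -2.79 and an adjusted p of 0.164. In that fit 84 genes and none of the 124 members passed.

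CENPM, a kinetochore protein of the group bound to centromeric chromatin throughout the cycle, was the only core member to pass. Its NK levels ran from -4.21 to 0.96 with a median of -2.89, against 0.26 and 0.56 in B cells. On 17 of 18 NK arrays it lay below both B cell arrays, and the exception was double-low replicate 4, 1 of the dim arrays. The difference was -3.20 ± 0.81 (adjusted p = 0.0360), -2.72 on the shared slide and -3.27 by the second probe. CENPM did not pass in 5 of 14 other settings, with a limma adjusted p of up to 0.546. These included quantile normalization (adjusted p = 0.0560), the deposited values (0.0540), slide as a block (0.0770) and the donor label as a block. It also did not pass without replicate 3 of double-low cells or of CD27 single positives.

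KIF26B, a kinesin that lacks motor activity and acts in cell adhesion and Wnt signalling in other tissues, was well above background on 17 of 18 NK arrays and on neither B cell array. NK levels ran from -6.70 to -2.33 with a median of -3.57, against measured B cell levels of -5.98 and -6.87. Set against the background level of the B cell arrays, it was at least 3.27-fold higher in NK cells (adjusted p = 0.0375). Double-positive replicate 5, at -6.70, was the 1 NK array in the range of the B cell arrays. The call was lost with normexp (adjusted p = 0.174), quantile normalization (0.152), the deposited values (0.159) and the replicate block (0.0582), and without replicate 2 or 3 of CD11b single positives, replicate 3 of double-low cells or replicate 3 of CD27 single positives.

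CDC42EP3, an effector of the small GTPase CDC42 that organises septins and actin, is a member through its symbol. Its NK levels ran from -4.16 to -1.88 with a median of -3.02, against -4.87 on both B cell arrays, so the groups did not overlap. The difference was 1.68 ± 0.45 (adjusted p = 0.0478), and 1.67 on the shared slide. The call was lost in 14 of the 20 fits that left out 1 array, with normexp (adjusted p = 0.152), with quantile normalization or the deposited values (both 0.173), with slide as a block (0.0593) and without the 2 dim arrays (0.0548).

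None of these 4 members passed without B cell replicate 1 or without B cell replicate 2. The lone B cell array is then assumed to vary like the NK subsets. Without replicate 1 and without replicate 2, KIF13A had -2.77 and -2.32, CENPM -3.35 and -3.05, KIF26B 3.12 and 2.23 as measured, and CDC42EP3 1.69 and 1.68.

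Of 20 transport and other kinesins, a list that also holds KIF2A, KIF7 and KIF26B, 17 were higher in NK cells by value, against 59.1% of all genes, with a median difference of 0.93 against 0.36. At an unadjusted p under 0.05, 8 were higher and 1 lower, against 17.5% and 5.2% of all genes. Markers of other cell types were also higher in NK cells by value: erythroid 6 of 6 (median 1.01), stroma and endothelium 6 of 7 (1.24), platelet 3 of 4 (0.83) and monocyte 6 of 8 (0.67). Their part in the result was not tested. Only KIF26B and KIF13A passed after adjustment, in opposite directions. Every NK array exceeded both B cell arrays for KIF1A, a vesicle motor best known in axons, for the heterotrimeric kinesin subunit KIF3C, for the kinesin heavy chain KIF5A, and for KIF7, a regulator of Hedgehog signalling. KIF7 had NK levels from -0.20 to 1.32, against -0.43 and -0.35 in B cells (adjusted p = 0.111). KIF5A had a median NK level of 0.02 and a highest of 0.65, against -1.21 and -1.08 (adjusted p = 0.123). CDC14B, a phosphatase that opposes CDKs, was the other member of this kind besides CDC42EP3, with NK levels from -0.22 to 2.49 against -0.29 and -0.32.

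DNA replication genes did not pass. POLD3, an accessory subunit of DNA polymerase delta, had NK levels from -2.44 to -0.16, below the B cell levels of -0.13 and 0.39 on all 18 arrays, with a difference of -1.54 ± 0.47 (adjusted p = 0.0782). POLD4, another subunit, lay below both B cell arrays (1.70 and 1.51) on 17 of 18 NK arrays. MCM3, a subunit of the helicase ring, spanned -7.70 to -0.13 on the NK arrays, against -0.08 and -1.14 in B cells, and 16 of 18 NK arrays lay below both. MCM2, another ring subunit, was steadier, from -0.27 to 1.67 on NK arrays with a median of 0.85, against 1.44 and 1.32. Of 15 origin and helicase genes, 10 were lower in NK cells by value, with a median of -0.57, and of 18 centromere proteins 12 were lower, with a median of -0.63. These medians lie under the 0.36 of all genes, and no more than 1 member of either group passed.

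The core proliferation members as a set had a median difference of -0.54 between NK and B cells, 24 of 37 being lower in NK cells. This value depended on which B cell array stood for B cells. Taken relative to the median of all genes it was -1.36 against B cell replicate 1 alone and -0.34 against B cell replicate 2 alone. With normexp background correction the median of the set was -0.04, against 0.39 for all genes. With the donor label as a block it was 0.06, against 0.32. The B cell arrays are therefore described apart.

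Replication and mitosis genes were mostly brighter on B cell replicate 1 than on B cell replicate 2. Of the 37 core members, 31 were higher on replicate 1, with a median difference of 0.70 on the log2 scale against 0.02 for all 12383 genes. Replicate 1 exceeded the median NK array for 28 of the 37 and replicate 2 for 19. It exceeded all 18 NK arrays for 5 and replicate 2 for 1. With 1 array each, these differences have no replicate check. The 2 animals differ in labelled age, and animal, age and array cannot be told apart.

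**Figure D2:**
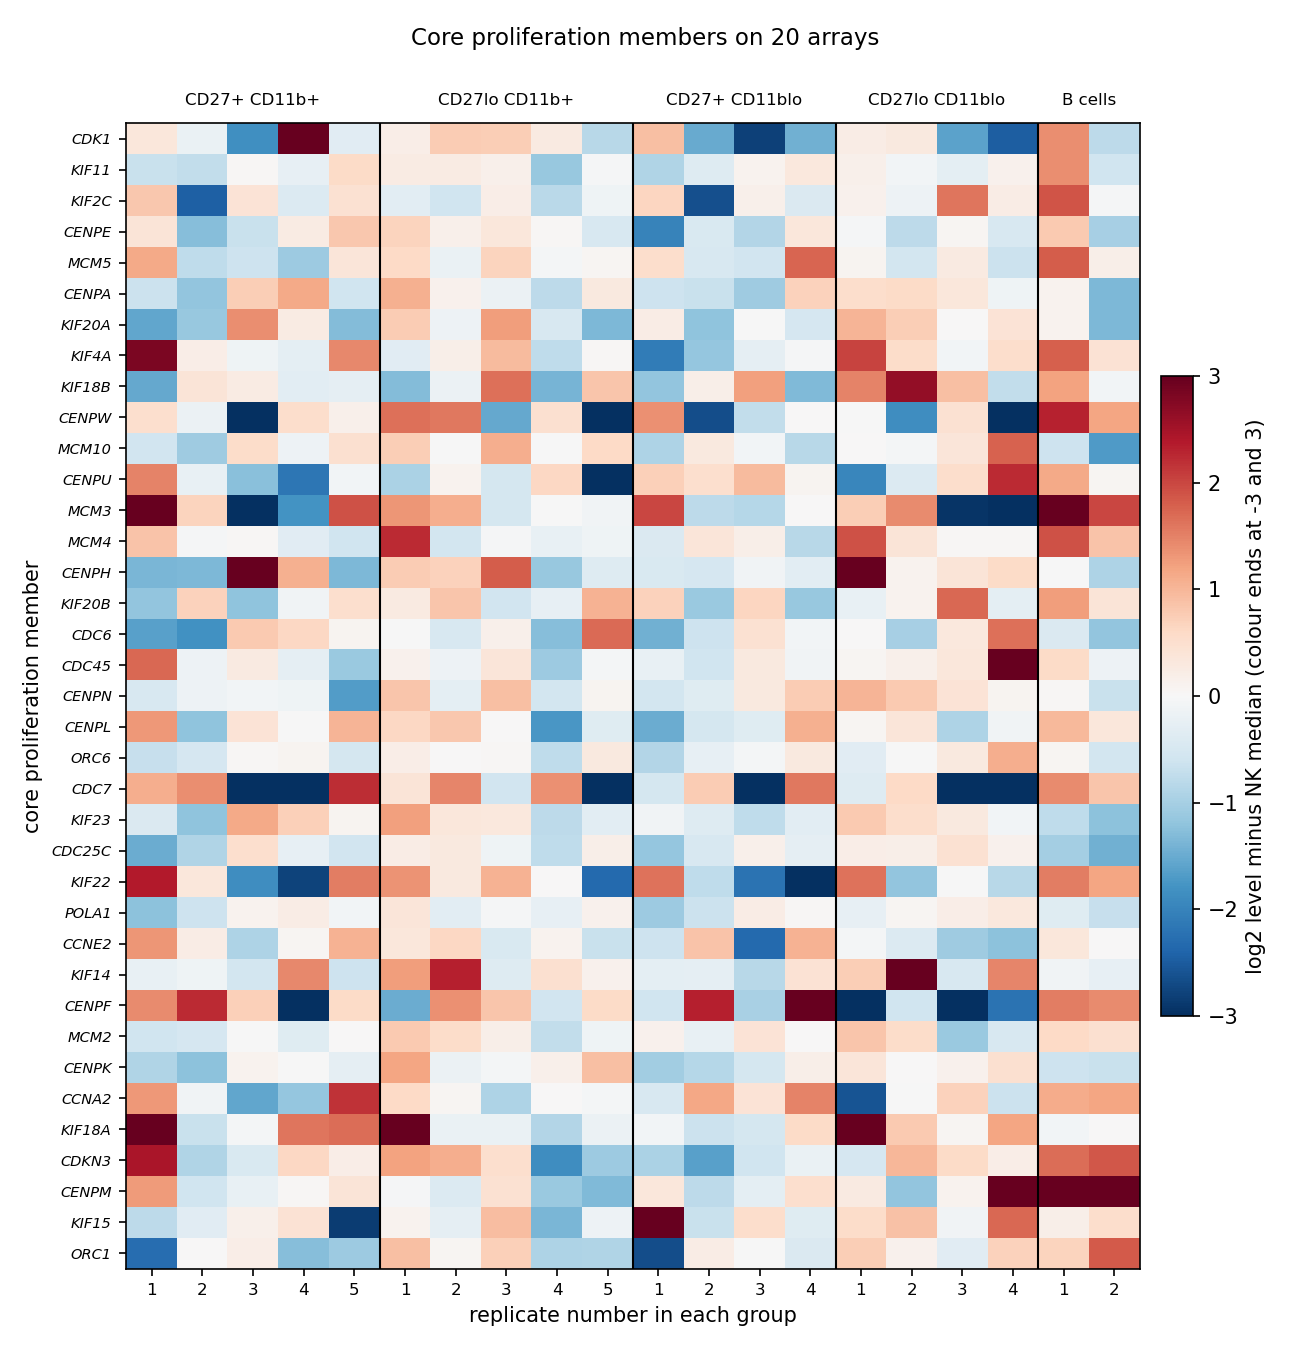
Level of the 37 core proliferation members (rows, ordered by B cell replicate 1 minus B cell replicate 2) on 20 arrays (columns, by group and replicate number), as log2 level minus the median of the gene over the 18 NK arrays. Colours end at -3 and 3. The column of B cell replicate 1 is red for most of the upper rows, and the NK columns show no block of rows that is red in 1 subset only.

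A log2 of 2 was passed upward by 2 of 124 members, MCM8 and CDK1 (1.14% of all genes), and downward by 1, CDC42BPA (1.44%), or 3 in all (2.58%). CDK1, the kinase that starts mitosis, stood at -2.39 on replicate 1 and -4.58 on replicate 2, a difference of 2.19. Its NK levels ran from -6.59 to -0.39 with a median of -3.78. MCM8, a helicase of meiotic and break-induced recombination, stood at -0.35 and -3.57, a difference of 3.22, within NK levels of -5.84 to 0.93. CDC42BPA, a kinase of the cytoskeleton that is a member through its symbol, stood at -6.60, not well above background, and -2.83. A second probe gave -4.15 and the other 3, all dim, -0.15 to 0.12.

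The next members upward were chiefly motors and kinetochore proteins. KIF11, the motor that pushes spindle poles apart, stood at -1.08 on replicate 1, above all 18 NK arrays, and at -3.07 on replicate 2. KIF2C, which removes wrong chromosome attachments, stood at -3.55, also above all NK arrays, and at -5.47, where it was not well above background. CENPE, a kinetochore motor, stood at -1.43 and -3.22, and CENPA, the centromeric histone, at -0.99 and -2.45. The helicase subunit MCM5 stood at -0.08 and -1.71, and KIF20A, a motor of the cleavage furrow, at -3.73 and, not well above background, -5.18. KIF3C and the microtubule depolymerase KIF2A, listed as transport kinesins, were also among the 10 of largest difference. KIF3C on replicate 2 was also not well above background. The 5 of these that both arrays measured, KIF11, CENPE, KIF2A, MCM5 and CENPA, differed by 1.46 to 1.98, and for KIF2C, KIF20A and KIF3C the replicate 2 value is only a background reading.

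Downward, after CDC42BPA, the differences were smaller. CENPB, which binds centromeric repeats, differed by -1.32, ORC1, the largest origin recognition subunit, by -1.17, and CDK5, a kinase known from neurons, by -1.16. The rest of the 10 of largest difference downward, the endosome motor KIF16B, CDK14, CDC42SE1, CDC42BPG, ORC5 and KIF21A, were smaller, down to -0.57. Of the 6 core members lower on replicate 1, ORC1 was the 1 among these 10.

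By role, the difference between the B cell arrays had unlike medians. Mitotic kinesins had a median of 0.84 (11 of 13 higher on replicate 1), origin and helicase genes 0.74 (12 of 15), centromere proteins 0.61 (14 of 18), and S, G2 and M phase cyclins and kinases 0.38 (7 of 8). Transport kinesins had a median of -0.16 (8 of 20), transcriptional and other CDKs -0.07 (5 of 12), D cyclins -0.19 (1 of 3) and CDK inhibitors -0.18 (1 of 4). KIF4A and KIF4B are near-identical copies whose probes may read both. Among the S, G2 and M phase genes, CDC25C and CCNE2, both core members, changed sign by other probes. CDC25C differed by 0.43 by the probe used but by -1.35, -0.93 and -1.25 by the others, and CCNE2 by 0.33 but -0.24. The other probes of CCNA1 and CDK2 kept the sign.

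**Figure D3:**
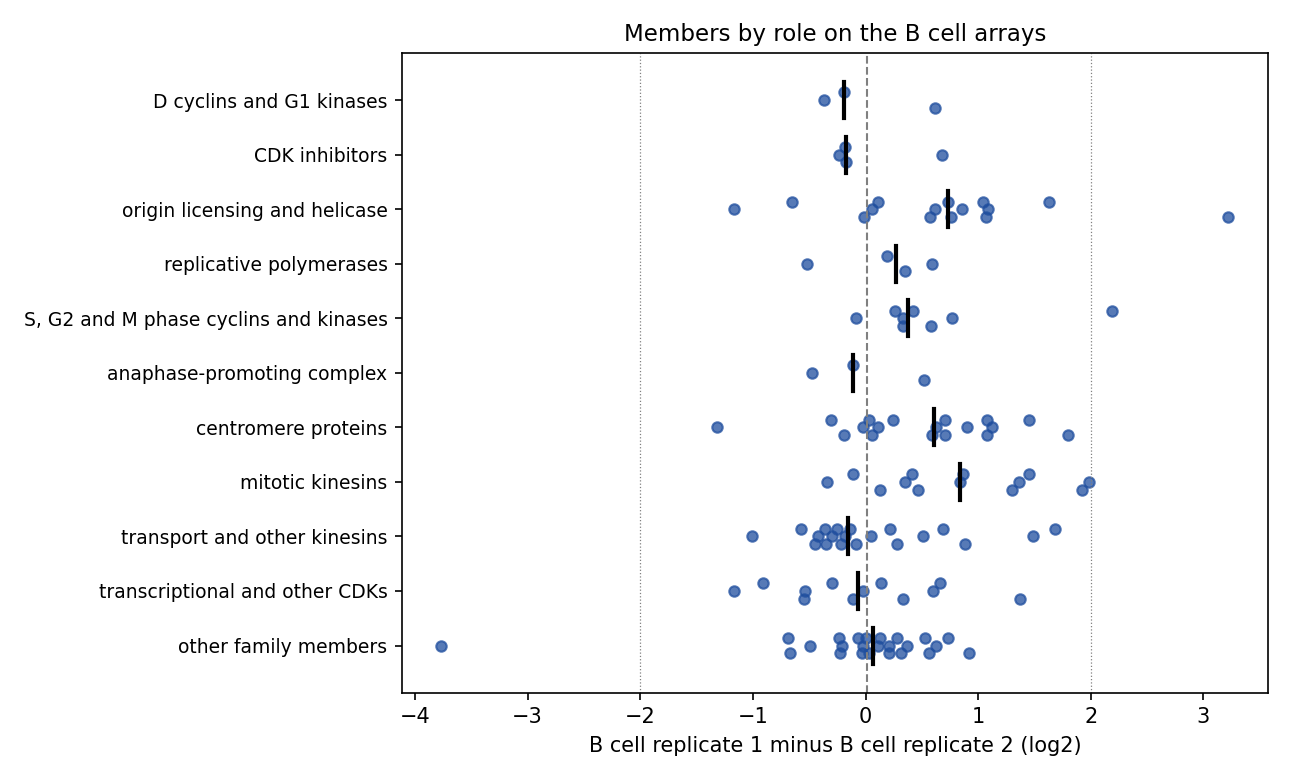
B cell replicate 1 minus B cell replicate 2 (log2, horizontal axis) for the 124 tested members by role. Each point is a gene, black bars are role medians, the dashed line is the median of all genes (0.02) and dotted lines mark -2 and 2. Mitotic kinesins (median 0.84) lie mostly right of the dashed line and transport kinesins (median -0.16) on both sides.

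Genes of division outside these families were also read on the 2 B cell arrays. Of 49, 40 were higher on replicate 1 and 9 lower, with a median of 0.86, and 7 passed a log2 of 2 upward, against 1.14% of all genes. The spindle checkpoint kinase BUB1 stood at -1.71 on replicate 1 and, not well above background, -5.96 on replicate 2, and DLGAP5, a spindle protein, at -1.74 and -5.08. MKI67, the standard marker of cycling cells, stood at -1.57 and -4.49, and replicate 2 was lower than every NK array (-3.95 to -1.26). UBE2T, a DNA repair enzyme, differed by 2.79, the checkpoint kinase BUB1B by 2.72 and UHRF1, which keeps DNA methylation through replication, by 2.30. All 9 tested germinal centre markers were higher on replicate 1, by 0.06 to 0.87, with a median of 0.67, while general B cell markers had a median of 0.12 (6 of 11 higher). NK markers were also higher on replicate 1, with a median of 0.52 (7 of 11), led by EOMES at -4.36 and, not well above background, -7.46, against a median of 1.51 on NK arrays. The part of these markers in the result was not tested.

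**Figure D4:**
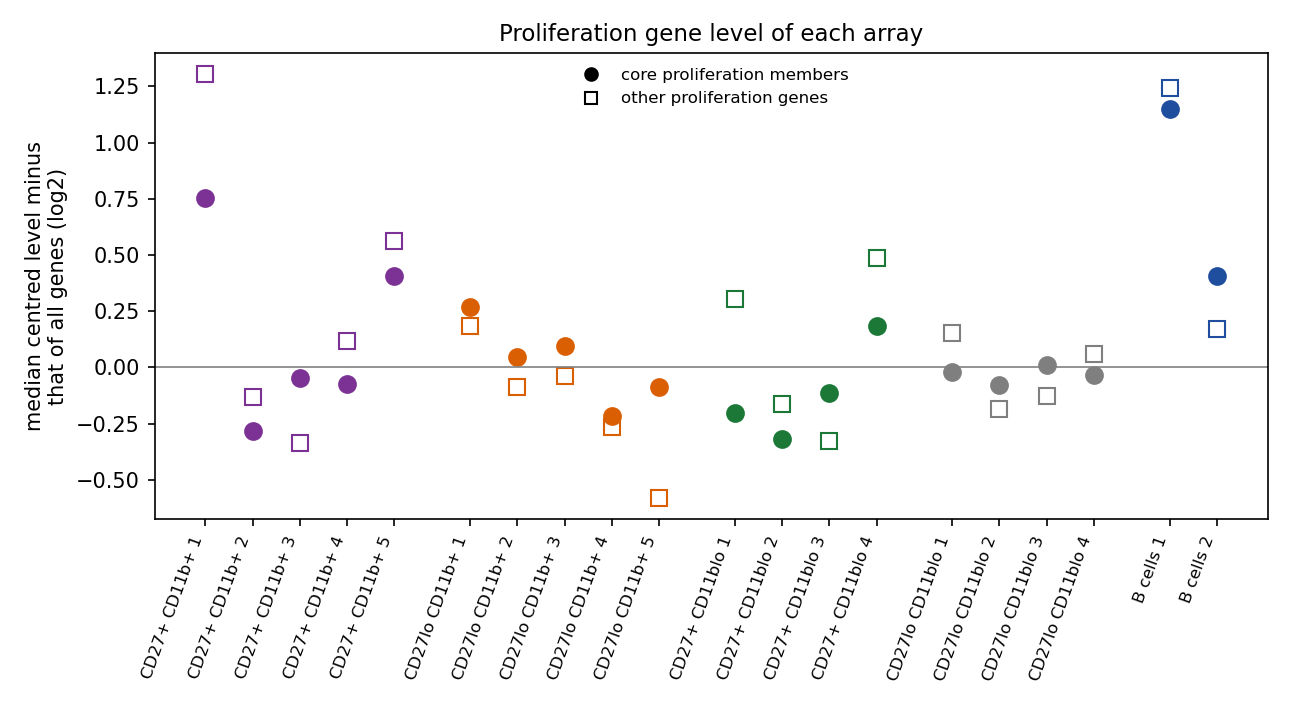
Median level of the core proliferation members (filled circles) and of the other proliferation genes (open squares) on each array, centred on each gene's NK median, minus the same median over all genes tested (log2, vertical axis). Core members stood at 1.15 on B cell replicate 1 and 0.41 on B cell replicate 2, and the highest NK array was double-positive replicate 1, at 0.75.

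Relative to all genes, the median core member stood at 1.15 on B cell replicate 1 and 0.41 on B cell replicate 2. The 18 NK arrays ran from -0.32 to 0.75, and no NK subset stood apart: each subset held arrays on both sides of 0. Double-positive replicate 1 (0.75) and double-positive replicate 5 (0.41) were the highest NK arrays. With normexp background correction B cell replicate 1 stood at 0.55 and the highest NK array at 0.41. Core members moved together only weakly within NK cells: over 561 pairs of 34 core members the median Spearman correlation across the 18 NK arrays was 0.10, against 0.05 for pairs of all genes. The 5 genes most like CDK1 across those arrays, among 12184 compared, were ESYT1 (rho 0.80), VIPAS39 (0.76), ING4 (0.75), RBCK1 (0.75) and CEP20 (0.74). None of them is a member.

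Across the 4 NK subsets no member passed without array weights. The limma F test for any difference called 0 of 12185 genes (0%), and 0 of 121 members. With array weights it called 868 genes and 4 members, a smaller share of the members than of all genes. Without weights, 1063 genes (8.72%) and 8 members had an unadjusted p under 0.05. The lowest member p values belonged to KIF13A (0.0115), the CDK inhibitor CDKN2C (0.0143) and CDC26 (0.0143), each with an adjusted p of 0.560.

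Between CD11b+ cells (double positives and CD11b single positives) and CD11blo cells, 0 of 121 members passed by limma, and 2 of 12185 genes did (0.0164%). At an unadjusted p under 0.05 there were 2 members, against 615 genes (5.05%). CDC25B, the phosphatase that switches on CDK1, had levels from 1.76 to 3.63 in CD11b+ cells with a median of 2.64, against 0.84 to 2.40 with a median of 1.79 in CD11blo cells. Of the 10 CD11b+ arrays, 9 lay above the CD11blo median, and the ranges overlapped. The difference was 0.90 ± 0.29 (adjusted p = 0.934), 0.97 on the first slide and 0.87 on the second. The third slide held CD11b+ subsets only.

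KIF13A had levels from -4.41 to -1.60 in CD11b+ cells, against -2.30 to -1.11 in CD11blo cells. Replicates 1, 2 and 5 of double positives stood at -3.99, -3.67 and -4.41, and the other 15 NK arrays at -2.56 or higher. The difference was -0.98 ± 0.34 (adjusted p = 0.944), -1.37 on the first slide and -0.67 on the second. CDK1 had a difference of 1.30 ± 0.64 and CDC42EP3 of 0.58 ± 0.30, and CENPT, a kinetochore protein, of -0.59 ± 0.28 and KIF15, a spindle motor, of -1.12 ± 0.55. Each had an adjusted p of 0.944. CDK1 was well above background on 4 of 5 double-positive, 5 of 5 CD11b single-positive, 2 of 4 CD27 single-positive and 2 of 4 double-low arrays, and its highest level, -0.39, was on the dim replicate 4 of double positives.

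CD27+ cells (double positives and CD27 single positives) likewise had no member past the threshold against CD27lo cells. Limma called 0 of 12185 genes (0%). With array weights it called 4333 of 12185 genes and 32 of 121 members, a smaller share of the members than of all genes. Without weights 2697 genes had an unadjusted p under 0.05 (22.1%), 777 higher (6.38%) and 1920 lower (15.8%) in CD27+ cells. Among members these were 17, 5 higher and 12 lower. All genes had a median difference of -0.37 here and members of -0.15, and under quantile normalization these were -0.13 and 0.00, so a small negative value is read against that shift.

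CDKN2C (p18), which blocks CDK4 and CDK6, had levels from -2.01 to 2.49 in the 9 CD27+ arrays with a median of -0.90, against -4.49 to -0.78 in the 9 CD27lo arrays with a median of -2.28. All 9 CD27+ arrays lay above the CD27lo median, and the ranges overlapped. The difference was 1.99 ± 0.58 (adjusted p = 0.198), 1.73 on the first slide and 0.75 on the second. CDC26, a small subunit of the anaphase-promoting complex, had levels from 1.22 to 2.86 in CD27+ arrays, against -0.90 to 2.12 in CD27lo arrays, with a difference of 1.18 ± 0.35 (adjusted p = 0.198). Its 3 probes moved together, with correlations of 0.99 and 0.92 to the one used. KIF5B, the ubiquitous kinesin heavy chain, had levels from 1.18 to 2.77 in CD27+ arrays and from -1.49 to 1.95 in CD27lo arrays, with a difference of 1.29 ± 0.44 (adjusted p = 0.199).

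**Figure D5:**
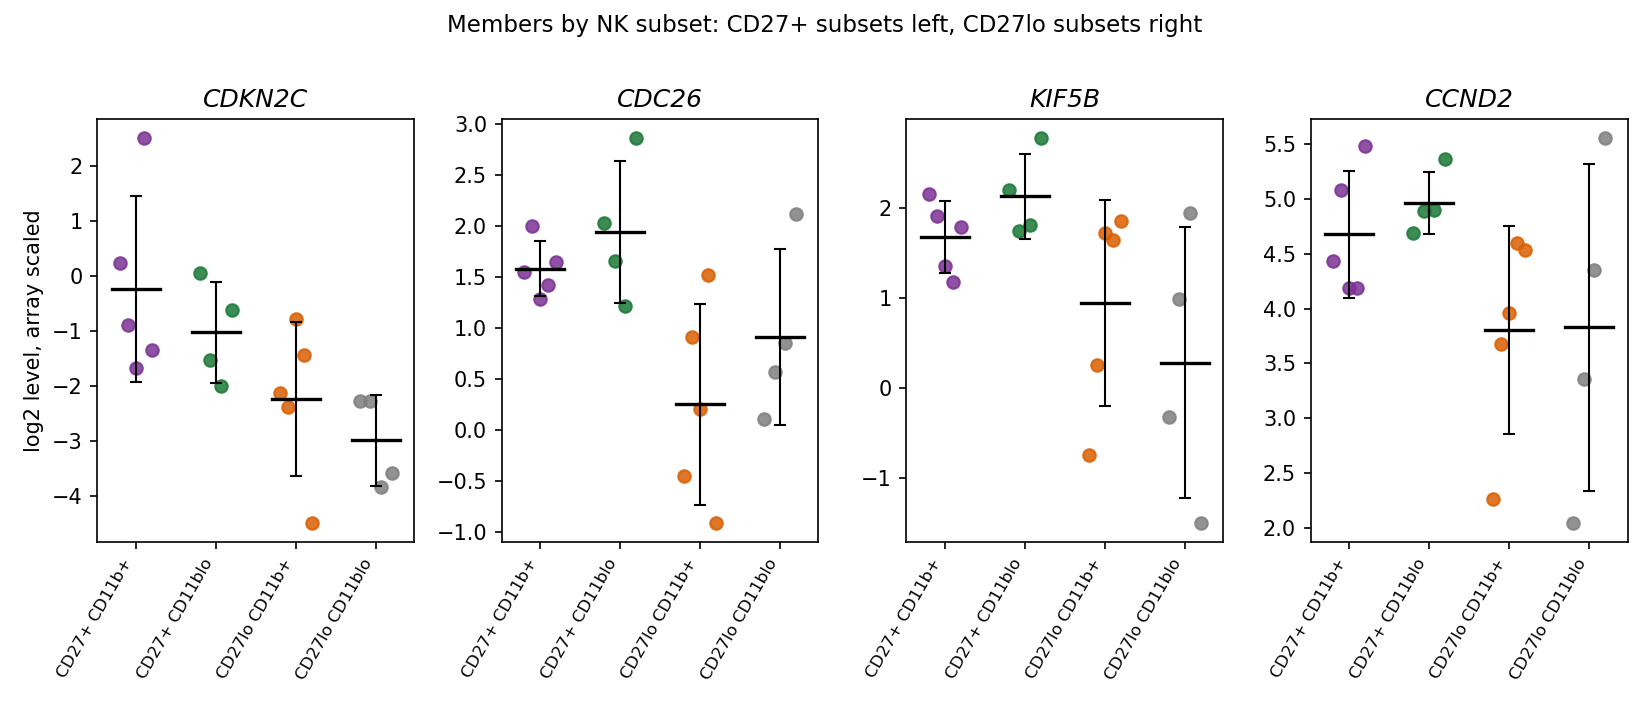
Log2 level (array scaled, vertical axis) of CDKN2C, CDC26, KIF5B and CCND2 by NK subset, CD27+ subsets at left. Each point is an array, bars are means and error bars SD (n = 5, 4, 5 and 4 from left to right). The CD27+ arrays of CDC26 lie between 1.22 and 2.86, and those of CDKN2C above the CD27lo median of -2.28. No member passed the threshold without array weights.

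Downward along CD27, CDK7, the kinase that activates other CDKs and also acts in transcription, differed by -1.55 ± 0.50 (adjusted p = 0.199), but it was well above background on only 6 of 18 NK arrays. CENPK, a kinetochore protein, differed by -0.84 ± 0.29, and KIF1A by -0.69 ± 0.24 (both adjusted p = 0.199). The other probes of CENPK did not follow the one used (correlations of -0.07 and -0.04), and with the median over its probes the difference was 0.48. CCND2 ran from 4.19 to 5.49 in CD27+ arrays, against 2.05 to 5.56 in CD27lo arrays. The core members had a median difference of -0.40 along CD27, against -0.37 for all genes, and the 11 tested mitotic kinesins were all negative, with a median of -0.46, against 34% of all genes above 0. Markers of other cell types were also lower in CD27+ cells by value: erythroid 6 of 6 (median -0.80, 3 at an unadjusted p under 0.05), stroma and endothelium 6 of 7 (-0.85), platelet 4 of 4 (-0.52) and B cell 10 of 11 (-0.57). Their part in the result was not tested.

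Genes that hold lymphocytes at rest were read beside the members. Of 17 with a probe, 13 were higher in CD27+ cells by value, against 34% of all genes, with a median of 0.56 against -0.37. At an unadjusted p under 0.05, 5 were higher, against 6.38% of all genes, and none passed. Named after their values were seen, these were PDCD4 (2.01 ± 0.54), BTG1 (1.20 ± 0.36), FOXP1, KLF4 and TSC22D3 (GILZ), each with an adjusted p between 0.198 and 0.206. Between NK and B cells the list ran the other way: 14 of 17 were lower in NK cells by value, with a median of -0.78 against 0.36 for all genes. At an unadjusted limma p under 0.05, 5 were lower and 2 higher, against 5.2% and 17.5% of all genes. Only SLFN5, an interferon-induced growth inhibitor, passed, and it was higher in NK cells. Its NK levels ran from -2.77 to 1.06, against -4.96 and -3.91 in B cells, a difference of 3.68 ± 0.81 (adjusted p = 0.0164). Over 14 other settings the SLFN5 difference ranged from 2.72 to 3.89, and 1 of them lost the call (limma adjusted p of up to 0.401). It was 3.15 without B cell replicate 1 and 4.20 without B cell replicate 2, and passed in neither fit. KLF4, FOXP1 and the retinoblastoma gene RB1 were lower in NK cells by value, by -3.62, -1.45 and -2.50, with adjusted p of 0.133, 0.145 and 0.175. Of the other proliferation genes only KNL1, the scaffold of the outer kinetochore, passed (-3.55 ± 0.87, adjusted p = 0.0324). It stood at -2.45 and -2.82 on the B cell arrays and was well above background on 2 of 18 NK arrays, so the size of the difference is a rough one. It ranged from -3.98 to -1.21 over the other settings, and did not pass with normexp, on the second slide alone, with slide or donor label as a block, or without either B cell array (adjusted p = 0.428 and 0.360). GINS4 (1.05), TPX2 (-1.51) and E2F1 (0.82) had adjusted p between 0.154 and 0.218.

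No member passed for the interaction of CD11b with CD27 (limma, 0 of 12185 genes, 0%; 176 genes, 1.44%, and 4 members at an unadjusted p under 0.05). Of 121 members 63 were above 0, against 55.5% of all genes. CDKN2D differed by -4.16 ± 1.42, CENPF, a late kinetochore protein, by -4.33 ± 1.78, CENPC, which anchors the kinetochore, by -3.78 ± 1.58 and KIF4A, a chromosome motor, by 2.44 ± 0.95, all with an adjusted p of 0.9997. CDKN2D was lowest in double-low cells, between -3.35 and -1.95, but replicates 3 and 4 of double positives stood at -2.65 and -4.18. CENPF stood at -3.97, 0.01, -5.16 and -1.60 in double-low cells, and at -3.78 on the dim double-positive array. CDC42BPB and POLD3 had differences of 1.70 and 1.03.

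The ends of the sort, CD11b single positives against CD27 single positives, gave no called gene either (0 of 12185, 0%; 641 genes, 5.26%, and 4 members at an unadjusted p under 0.05). Of these members 3 were higher in CD11b single positives (2.38% of all genes) and 1 lower (2.88%), and 79 of 121 were above 0, against 60.7% of all genes. CDK7 differed by 2.29 ± 0.71, CDC42EP3 by 1.20 ± 0.42 and CENPK by 0.96 ± 0.41, while CDC26 differed by -1.68 ± 0.50, KIF5B by -1.18 ± 0.62 and CCND2 by -1.16 ± 0.58, each with an adjusted p of 0.813. CDC26 stood between -0.90 and 1.52 in CD11b single positives, against 1.22 to 2.86 in CD27 single positives. CCND2 stood between 2.26 and 4.60, against 4.69 to 5.37. How many of all genes separate in this way between the single positives was not counted, so the separation is not read as a result.

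Several members varied widely between NK arrays. The median SD over the 18 NK arrays was 0.92, and 21 members spanned more than a log2 of 6. Neither value was computed for all genes, so the spread is not read as particular to the members. CDC7, the kinase that fires origins, had the largest SD (2.68, from -7.03 to 0.59), followed by CENPF (2.50), CENPW (2.36) and CDK2AP1, an inhibitor of CDK2 (2.33). Among these, MCM3 and CDC7 were low on double-positive replicate 3 and double-low replicates 3 and 4, and CDC7 also on the dim double-positive array, on CD11b single-positive replicate 5 and on CD27 single-positive replicate 3. By contrast CDK5RAP2, a centrosome protein, had an SD of 0.35 and CDK8, a kinase of the Mediator complex, of 0.37. Where a member had further probes, these mostly moved with the one used: 94 of 102 had the same sign of the difference between NK and B cells, and their median correlation over the NK arrays was 0.84.

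Other members are given for their levels. CDK2, the S phase kinase, ran from -1.70 to 2.81 over the NK arrays, against 2.35 and 1.77 in B cells, and cyclin A2 (CCNA2) from -3.28 to 1.49, against 0.42 and 0.50. CDC6 ran from -2.37 to 1.14, above both B cell arrays on 11 of 18, and ORC6 from -0.82 to 1.15, against 0.11 and -0.50. KIF23, a motor of the spindle midzone, lay between -0.08 and 2.36 on NK arrays and at 0.37 and -0.10 in B cells, and KIF24, a regulator of cilia, between 0.72 and 3.97 against 2.24 and 1.83. CENPO ran from 2.07 to 4.84, against 2.64 and 2.39, and CENPN from -1.35 to 1.35, against 0.35 and -0.35. CDK17, a kinase of the PCTAIRE group, ran from 2.56 to 4.82, against 3.10 and 3.12, and CDK9, which releases paused RNA polymerase, from 0.43 to 3.18, against 1.51 and 2.04. None of these passed in any comparison under the main settings, that is, without a block or array weights. The cyclin genes CCNB1, CCNB2 and CCNE1 and the genes CDC20, CDK4, CDK6, CDKN1A, MCM6 and MCM7 are members by symbol that had no matched probe and were not analysed here.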

How the data were processed

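Per the submitters' processing notes, Agilent Feature Extraction 10.7.1.1 and Partek were used. No version of Partek is given in the sources used here. The authors deposited scanner files whose processed signal is a 1-colour intensity, and per the file headers spatial and multiplicative detrending were run. In the matrix of log2 values that the authors deposited every array has the same quantiles (median 8.02). It was used as an alternative only.

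Control spots and outlier spots were left out, and spots of a probe averaged. Probe accessions without version were matched to the RefSeq gene table (assembly T2T-MFA8v1.1): 20417 of 58659 probes (34.8%) gave 12530 genes. No sequences were used. Each gene was read from its brightest probe on average, provided that 2 of 20 arrays (NK against B cells) or 4 of 18 NK arrays had it well above background. Levels were log2 of the processed signal minus log2 of the array's 75th percentile. They were tested by limma 3.58.1 under R 4.3.3 (lmFit, eBayes with trend and robust), with no block, over all 20 arrays for NK against B cells and over the 18 NK arrays for the comparisons between subsets, and p was adjusted by Benjamini-Hochberg over all genes tested. The NK mean in the B cell comparison is the mean of the 4 subset means. A fold marked "at least" sets the mean of the brighter group against the background level of the other. The planned normexp alternative used the median spot signal, because the mean signal column was not present.

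Members, lists and named genes were chosen with earlier results of these data known. Named members were those past the threshold, or the 3 of lowest p in each direction where none passed, the 10 of largest difference in each direction between the B cell arrays, the 3 of highest NK level per role, and listed non-members of lowest p or largest difference. Labels carry replicate numbers. Deviations from group means of same-numbered NK arrays correlated from -0.30 to 0.42 (median 0.22, against -0.07 for 96 other pairs), 17 of 25 pairs over 0.1, and no label names an animal. A number does not always mean 1 donor label: replicate 4 is a female of 18 years in double-low cells and CD27 single positives. In double positives and CD11b single positives replicate 4 is a male of 5 years. The 25 NK pairs that share a donor label had the same lowest and median correlation, -0.30 and 0.22. These include the replicate 3 pairs, whose arrays share origin and sex but not labelled age. All pairs within replicate 2 lay between 0.26 and 0.35. Whether arrays shared an animal is not known. Since not every pair was over 0.1, the numbers were not taken as pairs, and the tests treat the arrays as independent. Arrays stood on 3 slides: slide 1 with replicates 1 and 2 of all NK subsets, slide 2 with both B cell arrays and 6 NK arrays, and slide 3 with 4 arrays of CD11b+ subsets. P-values measure only the spread between these arrays, whose number sets the precision.

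On simulated data, with differences added to shuffled residuals in 10 draws over 12363 genes, the NK against B cell test recovered 2.6% of genes changed 2-fold, 36.8% at 4-fold, 71.6% at 8-fold and 85% at 16-fold, with 17.9 unchanged genes called per draw. The CD27 test over 12165 genes recovered 12.4%, 71.4%, 92.2% and 98.4%, with 2.2 unchanged genes called. In both simulations the residuals were deviations from group means and were not rescaled. The simulated spread was therefore smaller than that of the data, and the recovered shares may be too high.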

Additional observations from a re-analysis of the deposited data

Results flagged for a closer look

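Each value below stands for 1 array. In a group of 4 or 5 arrays, a value was marked when its gap to the nearest array, divided by the range of the group, passed the 95% critical value of Dixon's test. Over 80 named genes this tested 320 groups and marked 22, and chance alone marks about 1 group in 20 of those tested. Among double positives, 4 of the marked values were on the dim replicate 4: CENPB at 0.070, high for its group, and CDC42SE1 at -1.92, CENPF at -3.78 and POLD4 at -3.65, low for theirs. Double-positive replicate 3 was low for CDKN1B (-3.12) and RB1 (-5.58), replicate 5 for CENPN (-1.35), and replicates 1 and 2 were high for KIF16B (-1.68) and KIF3C (-1.44). Among CD11b single positives, replicate 4 was low for KIF11 (-3.62), KIF12 (1.37) and ORC6 (-0.71), replicate 1 was high for BUB1 (-0.90) and replicate 5 for CENPC (-0.27). Among CD27 single positives, replicate 4 was high for CDC42BPG (2.27) and POLD2 (0.51) and low for E2F1 (4.03), replicate 3 was high for KNL1 (-3.37) and low for RB1 (-2.02), and replicate 2 was low for CDK7 (-7.72). Among double-low cells, replicate 3 was low for CDC20B (-1.63) and replicate 1 for CDC25B (0.84).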

How the results depend on the processing

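Of the 4 members past the threshold between NK and B cells, KIF13A alone passed with quantile normalization and with the deposited values (1 member each), and KIF13A and CENPM with normexp background correction (2 members). The slide as a block gave 600 genes, every probe 1824, and the arrays of the second slide alone 1921 genes and 15 members. The second-slide counts are given without the shares of genes tested there. Array weights gave 5834 of 12383 genes and 50 of 124 members, a smaller share of the members than of all genes. The donor label as a block gave 84 genes and 0 members, and only B cell replicate 2 shares its label with NK arrays in that fit. With the replicate block 421 genes and 4 members passed, KIF3C in place of KIF26B (adjusted p = 0.0582), and it changed no other member call. Leaving out 1 array gave 57 to 724 genes and 0 to 5 members, 0 without B cell replicate 1 or 2 and 1 without replicate 3 of double-low cells or of CD27 single positives. CDC42EP3 failed in 14 of these 20 fits (adjusted p 0.0243 to 0.456 over all).

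Among subsets, the F test gave 3 genes with normexp, 12 over every probe, 868 genes and 4 members with array weights, and 0 to 1 leaving out 1 array. Along CD11b the 2 genes became 1 with the median over probes, with the replicate block, without the 2 dim arrays and without trend, 0 with slide or donor label as a block, 14 over every probe, 6 with array weights, and 1 to 4 leaving out 1 array. Along CD27, normexp gave 1 gene, array weights 4333 genes and 32 members, and leaving out 1 array 0 to 1 genes. With array weights the F test and the CD27 comparison both called a smaller share of the members than of all genes. Between the single positives array weights gave 9 genes, and leaving out 1 array 0 to 1. CENPK reversed with the median over its probes, to 0.48 along CD27 and -0.84 between the single positives. Leaving out 1 array called 0 members in these comparisons.

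Between the B cell arrays, 1 member exceeded a log2 of 2 with quantile normalization, normexp or the deposited values, and 0 lay below -2 with normexp or the median over probes. The count of core members higher on replicate 1 stayed between 29 and 33 of 37. With normexp the core level relative to all genes was 0.55 on B cell replicate 1 and 0.41 on the highest NK array. The median over probes for the B cell arrays and all settings for the array levels were chosen after seeing the data. The causes of these changes were not tested. Dim probes limit CDK7, KIF2C, KIF14, KIF18A, BUB1 and KNL1, which were above background on few arrays.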

Other observations

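Relative to all genes, the other proliferation genes stood at 1.30 on double-positive replicate 1, close to B cell replicate 1, at 1.24. The 4 NK arrays labelled replicate 1, from the animal or animals of 4 years, ran from 0.15 to 1.30, the 8 NK arrays labelled replicate 2 or 3 from -0.34 to -0.04, and the 6 labelled replicate 4 or 5 from -0.58 to 0.56. Double-positive replicate 5 (0.56) and CD27 single-positive replicate 4 (0.49) exceeded 3 of the 4 replicate 1 arrays. BUB1 stood at -1.55, -0.90, -2.34 and -2.47 on the replicate 1 arrays of double positives, CD11b single positives, CD27 single positives and double-low cells, and was well above background on 8 of 18 NK arrays in all. UHRF1 stood at 0.90, -0.64, 0.34 and -1.12 on the same arrays, against a median of -3.10 over all NK arrays. These values were picked after they were seen and were not tested; replicate number, age, origin and the first slide, which replicate 2 shares, were not separated here.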
